A study of Mus musculus with 6 samples.

Results

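The comparison described here sets bone marrow-derived macrophages that had RANKL, the osteoclast-inducing cytokine, for 1 day against untreated ones at day 0. It takes 4 of the 6 libraries of the series, 2 a side, chosen by their titles, and covers every expressed gene: 17960 genes had a count in the 4 libraries and 12224 had enough counts to be tested. The cells are primary mouse cells. The labels name the cells, the day and the additions, without strain, sex, age, dose or other factors in the medium. They do not say whether the libraries of a group are separate cultures or animals, so p-values here measure the spread between samples that may differ only technically. No group was cultured for the day without RANKL, so the effect of RANKL and that of the day in culture cannot be told apart in any result. The other 2 libraries, from macrophages with both RANKL and sodium acetate at day 1, entered the fit to share the estimate of spread. They also entered the choice of genes to test and the scaling of libraries. With the 4 libraries alone 12020 genes were tested. Values of the acetate libraries are given where they touch a result.

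RANKL binds its receptor RANK on cells of the macrophage lineage, which through the adaptor TRAF6 leads to NF-kappaB and MAP kinase signals, induces c-Fos and then NFATc1, and turns a phagocyte into a cell that fuses, polarises, seals itself onto bone through podosomes, and secretes acid and proteases. The results cover what moved beside the best known genes of that programme: genes that went from silence to expression or the reverse, and the families for growth, transport, cytoskeleton, vesicles, signalling, transcription, cell surface and metabolism.

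Expected counts per library ran from 9997527 to 11254961. CPM are counts scaled to a shared library size, and a pair of CPM gives replicate 1 and then replicate 2. Values after ± are standard errors of the fitted log2 fold change (RANKL minus day 0, n = 2 libraries a group). All 10 macrophage markers were present at day 0, and all 10 were lower with RANKL, their summed level lying between 20300.0 and 20800.0 CPM at day 0 and between 5860.0 and 5930.0 CPM with RANKL. Markers of B, T or NK, erythroid, stromal, mast and dendritic cells summed to at most 6.25 CPM in each of the 4 libraries, with Cd3e, Cd3d, Cd3g and Ncr1 at 0. Neutrophil markers summed to between 215 and 221 CPM at day 0 and between 164 and 166 CPM with RANKL. Endothelial markers summed to between 24.6 and 24.8 CPM at day 0 and between 7.54 and 11.3 CPM with RANKL. Megakaryocyte markers summed to between 332 and 350.0 CPM at day 0 and between 65.4 and 72.8 CPM with RANKL, nearly all of it Pf4 (344 and 325 to 57.6 and 64.9 CPM), while Itga2b was not called (4.75 and 5.96 to 6.77 and 7.26 CPM). The part of these cells in any result was not tested. In bulk libraries, fewer cells of a type and less RNA per cell cannot be told apart.

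Of the 12224 genes, 4011 were raised (32.8%) and 4095 lowered (33.5%) at an adjusted p under 0.05 in the edgeR quasi-likelihood fit, with Benjamini-Hochberg adjustment across every gene tested. The spread between replicates was small, a biological coefficient of variation of 3.58%, so shifts well under 2-fold passed. At least 2-fold changes were fewer, with 1030 genes raised (8.43%) and 1630 lowered (13.3%). These shares are the background for the counts of list members below. The median log2 fold change of all genes was 0.01.

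Some genes crossed from near silence to clear expression, or the reverse. Under the rule used, below 1 CPM in both libraries of a group and at least 10 CPM in both of the other, 27 genes were switched on (0.221% of genes tested) and 14 switched off (0.115%). These counts depend on the limits: without RANKL replicate 1 the genes switched off numbered 22, at a limit of 20 CPM 5, and at limits of 0.5 and 5 CPM 18 of the 27 and 7 of the 14 were shared. Since these values chose the genes, they are a description and carry no test. Among the genes switched on, 25 were protein coding and 5 had no read at day 0. Their promoters and those of the genes switched off are given first, for the 3 of each kind with the highest TPM (counts per transcript length, scaled to a common total), predicted genes known only by a Gm number left aside, that had an entry within 100 bases of the 5′ end used. Each sequence is the 250 bases before the transcription start, from RefSeq on GRCm38.p6, 5′ to 3′ on the gene's strand. Capitals mark letters that match one of 10 searched motifs on either strand: AP-1 TGANTCA, cyclic AMP response element TGACGTCA, E-box CACGTG, PU.1 GAGGAAGT, sterol response element TCACNCCAC, NF-kappaB GGGANTTCC, interferon response element GAAANNGAA, NRF1 GCGCANGCG, NFAT TGGAAA and TATA box TATAAA. No marked motif overlapped another.
Scin: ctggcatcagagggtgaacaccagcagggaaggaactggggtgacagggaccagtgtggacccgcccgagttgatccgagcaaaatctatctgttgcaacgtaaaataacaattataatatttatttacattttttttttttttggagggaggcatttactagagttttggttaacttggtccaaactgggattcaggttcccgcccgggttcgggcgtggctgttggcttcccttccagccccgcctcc
Mycl: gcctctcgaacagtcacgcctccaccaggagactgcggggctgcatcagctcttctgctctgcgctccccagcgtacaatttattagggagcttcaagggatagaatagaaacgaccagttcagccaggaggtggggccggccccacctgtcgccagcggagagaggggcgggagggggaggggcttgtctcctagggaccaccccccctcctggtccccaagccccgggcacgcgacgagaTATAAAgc
Vegfc: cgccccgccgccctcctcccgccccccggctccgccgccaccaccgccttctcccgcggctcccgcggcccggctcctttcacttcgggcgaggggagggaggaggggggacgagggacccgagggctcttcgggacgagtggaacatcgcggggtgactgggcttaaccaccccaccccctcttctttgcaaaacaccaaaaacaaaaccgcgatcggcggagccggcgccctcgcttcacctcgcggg
Fcrls: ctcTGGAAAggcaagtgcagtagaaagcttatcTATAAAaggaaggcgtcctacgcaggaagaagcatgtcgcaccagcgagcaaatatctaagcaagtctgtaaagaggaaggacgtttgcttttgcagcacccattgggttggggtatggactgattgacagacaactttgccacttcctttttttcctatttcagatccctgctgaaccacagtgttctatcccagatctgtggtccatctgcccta
Hpgd: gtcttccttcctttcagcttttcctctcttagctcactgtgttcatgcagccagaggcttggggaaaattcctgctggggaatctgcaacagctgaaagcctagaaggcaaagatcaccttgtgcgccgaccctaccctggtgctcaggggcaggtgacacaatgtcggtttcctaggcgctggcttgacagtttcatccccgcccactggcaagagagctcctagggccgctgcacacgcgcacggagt
P2ry13: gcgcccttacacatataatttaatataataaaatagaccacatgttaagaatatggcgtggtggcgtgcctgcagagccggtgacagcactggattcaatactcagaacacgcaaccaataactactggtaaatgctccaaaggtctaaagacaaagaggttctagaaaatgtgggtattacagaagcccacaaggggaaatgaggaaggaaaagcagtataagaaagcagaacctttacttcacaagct

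The windows are chr12:40134229-40134478 on the minus strand for Scin, chr4:122995681-122995930 on the plus strand for Mycl, chr8:54077282-54077531 on the plus strand for Vegfc, chr3:87263525-87263774 on the minus strand for Fcrls, chr8:56294302-56294551 on the plus strand for Hpgd and chr3:59210883-59211132 on the minus strand for P2ry13. They are unlike each other in composition. The Vegfc window held 71.6% G and C with 30 CpG pairs, while the P2ry13 window held 41.6% with 5 CpG pairs. Matches were few: TATAAA 8 bases before the Mycl start, and TGGAAA and TATAAA in the Fcrls window. TATAAA occurred in 5.95% and the NFAT letters in 14.3% of the 7719 windows of tested genes, so such matches are common. Only 63.1% of tested genes and 11 of the 27 switched-on genes had a usable entry, under the 80% needed to compare motif shares between sets, so no such comparison was made.

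Several of the genes switched on encode receptors for growth factors and hormones. Fgfr1, a fibroblast growth factor receptor (chromosome 8, 25513654 to 25575718 on GRCm38), stood at 0.297 and 0.314 CPM at day 0 and 55.5 and 55.9 CPM with RANKL. Met, the receptor for hepatocyte growth factor (chromosome 6, 17463800 to 17573980), stood at 0.989 and 0.314 CPM at day 0 and 86.7 and 79.7 CPM with RANKL. Ghr, the growth hormone receptor, had 1 read in each day 0 library and stood at 12.2 and 12.9 CPM with RANKL, a count ratio of 123 with a 95% counting interval of 33.8 to 1020. Gfra2, a co-receptor for neurturin, stood at 0.198 and 0.209 CPM at day 0 and 18 and 17.7 CPM with RANKL. All 4 receptors were well above day 0 in both RANKL libraries, as the rule requires.

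Secreted and surface proteins made up another share of the switched-on genes. Vegfc, the lymphatic growth factor, had 0 reads at day 0 and 56.9 and 54.5 CPM with RANKL. Taking 3 counts over the day 0 group as the limit of detection, that is at least 365-fold higher. Pgf, a ligand of the VEGF receptor FLT1, had 1 read over the day 0 group and 24.2 and 23.2 CPM with RANKL. Sema7a, a membrane-anchored semaphorin, was at 0 in both day 0 libraries and 18.9 and 20.6 CPM with RANKL, at least 130-fold higher. Ltbp1, which tethers latent TGF-beta to matrix, stood at 0.594 and 0.314 CPM at day 0 and 24.4 and 25 CPM with RANKL. Htra1, a secreted serine protease, stood at 0.0989 and 0 CPM at day 0 and 24.3 and 25.7 CPM with RANKL. In each of these genes the RANKL libraries were close to each other, and far above day 0 as the rule requires.

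The rest held transporters, enzymes and fusion genes among others. Slc6a4, the serotonin transporter, stood at 0.198 and 0.209 CPM at day 0 and 43.7 and 42.6 CPM with RANKL. Gstt1, a glutathione transferase (chromosome 10, 75783813 to 75798584), had the highest TPM of the 27 with RANKL, a mean of 57.6, and stood at 0.495 and 0 CPM at day 0 and 30.2 and 35.5 CPM with RANKL. Cyp2s1, a cytochrome P450, stood at 0.198 and 0.523 CPM at day 0 and 64.5 and 68.7 CPM with RANKL. Car2, the carbonic anhydrase that supplies protons for bone resorption, stood at 0 and 0.209 CPM at day 0 and 40.2 and 42.1 CPM with RANKL. Scin, an actin-severing protein, and Mycl, a member of the MYC family, had 0 reads at day 0, and were at least 736-fold and 681-fold higher with RANKL. The fusion genes Dcstamp and Ocstamp, at 57.6 and 54.7 CPM and 72.9 and 66 CPM with RANKL, and Ndrg4 at 15.2 and 15.3 CPM were also switched on. The other members were Lims2, Zfp462, Akap6, Chpf, Diras2, Rin1, Igsf3, the processed pseudogene Gm19026 and the long non-coding RNA 1110002J07Rik.

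The threshold did not fall in a gap. Lims2 and Rin1 were just inside, with 10.4 and 11.3 CPM in the lower RANKL library, and Tnfrsf9 and Zbtb32 just outside, with 9.86 and 9.34 CPM. With acetate added to RANKL, 17 of the 27 still had at least 10 CPM in both libraries, and in 26 the acetate mean was below the RANKL mean. The genes were chosen for high values with RANKL, so a lower mean in another group follows in part from the choice. The same share over all genes tested was not computed, and an effect of acetate was not tested. Summed over the 27 genes, the mean level with RANKL was 615 TPM, a small part of the total.

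**Figure D1:**
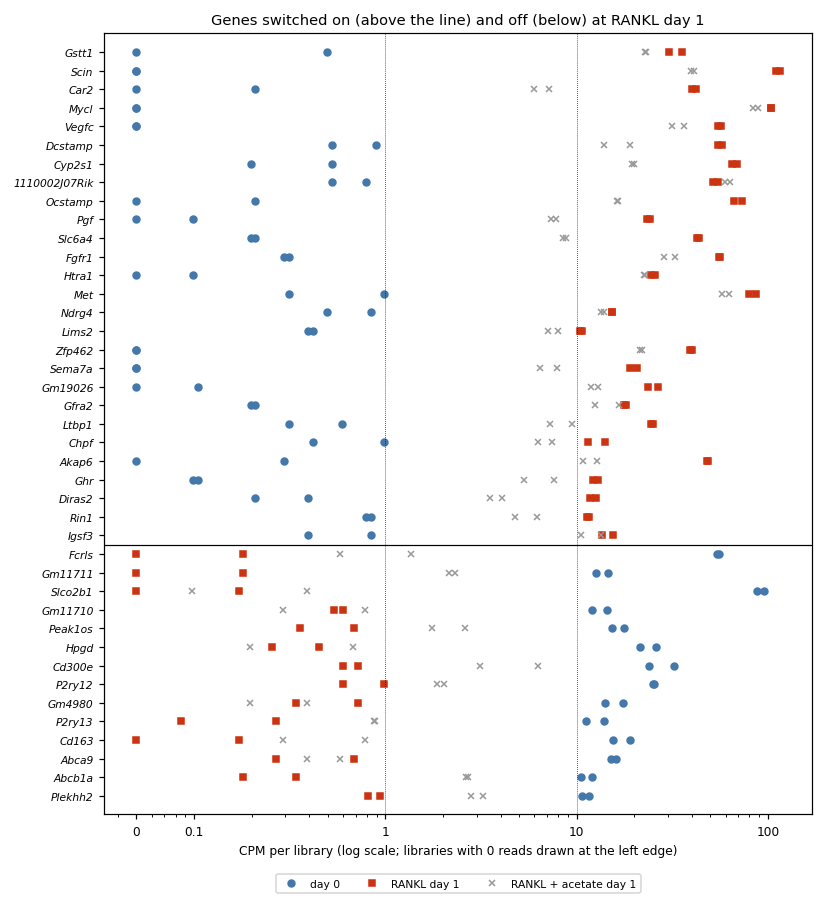
CPM per library on a log axis for the 27 genes switched on, above the line, and the 14 switched off, below it, with circles for day 0, squares for RANKL and crosses for RANKL with acetate. The dotted lines mark 1 and 10 CPM, the limits of the rule. Most crosses lie between circles and squares, which the choice of genes by these 2 groups favours.

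The genes switched off were largely surface receptors and lipid or drug handling genes. Fcrls, an Fc receptor-like scavenger receptor typical of mouse microglia, stood at 54 and 55.4 CPM at day 0 and 0 and 0.179 CPM with RANKL. Slco2b1, an organic anion carrier (chromosome 7, 99657804 to 99711340), stood at 95.3 and 88 CPM at day 0 and 0.171 and 0 CPM with RANKL, a count ratio of 1050 in favour of day 0 with a counting interval of 290 to 8660. P2ry12 and P2ry13, purinergic receptors for ADP, stood at 25 and 25.2 CPM at day 0 and 0.6 and 0.986 CPM with RANKL, and at 13.9 and 11.2 CPM at day 0 and 0.0857 and 0.269 CPM with RANKL. Hpgd, which inactivates prostaglandins, stood at 21.5 and 25.9 CPM at day 0 and 0.257 and 0.448 CPM with RANKL. Every one of these was below 1 CPM in both RANKL libraries, as the rule requires.

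Cd163, the haemoglobin scavenger receptor, stood at 15.5 and 19 CPM at day 0 and 0.171 and 0 CPM with RANKL. Cd300e, an activating immunoreceptor, stood at 32.4 and 23.9 CPM at day 0 and 0.6 and 0.717 CPM with RANKL. Abca9 and Abcb1a, ATP-driven transporters of which the second is the multidrug pump P-glycoprotein, stood at 15 and 16 CPM and 12.1 and 10.6 CPM at day 0 and below 1 CPM with RANKL. Plekhh2 was just inside the rule with 10.7 CPM in its lower day 0 library, and Ednrb, the endothelin B receptor, was just outside with 9.3 CPM. The antisense transcript Peak1os and 3 predicted genes make up the 14. Strand use in counting is not stated, so reads of Peak1os cannot be told apart from those of Peak1, which was lowered too, by 0.38 on the log2 scale. With acetate, 7 of the 14 were under 1 CPM in both acetate libraries, and 12 had a higher mean than with RANKL alone. The choice of genes by low values with RANKL favours such a higher mean, and an effect of acetate was not tested.

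The bulk of the messenger RNA moved through abundant genes rather than switched ones. Genes raised at least 2-fold took 2.61% and 2.62% of TPM at day 0 and 7.36% and 7.37% with RANKL. Genes lowered at least 2-fold took 19.4% in both day 0 libraries and 5.61% and 5.64% with RANKL. The 10 most abundant genes of each library held 11.5% of TPM at day 0 and 6.93% and 7.18% with RANKL.

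Ferritin led the losses. Ftl1, the ferritin light chain, went from 31170 and 29460 to 16540 and 17540 TPM, and Fth1, the heavy chain, from 16770 and 16580 to 5055 and 5092 TPM. Lyz2, the lysozyme of phagocytes, went from 17280 and 17070 to 5350 and 5332 TPM. Tmsb4x, which binds actin monomers, and Actb, cytoplasmic beta-actin, went from 13920 and 13960 to 4427 and 4333 TPM, and from 6692 and 6474 to 3302 and 3320 TPM. Ctsd, a lysosomal protease, Spp1, osteopontin, and Ccl2, a monocyte chemokine, had log2 fold changes of -2.17 ± 0.02, -1.79 ± 0.03 and -3.16 ± 0.04. In these 8 genes the groups did not overlap.

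Ribosomal protein genes filled 5 of the 8 largest gains. Rpl13a went from 2885 and 2947 to 5413 and 4981 TPM, Rplp1 from 4262 and 4344 to 6435 and 6732 TPM, and Rps12, Rps26 and Rpl23a rose by 0.69 ± 0.04, 0.66 ± 0.04 and 0.71 ± 0.03 on the log2 scale. Ribosomal protein genes have many processed pseudogenes, and how the expected counts split such reads was not examined. Vim, vimentin, the intermediate filament of mesenchymal and myeloid cells, went from 2063 and 1863 to 4126 and 4345 TPM. S100a4, a calcium-binding regulator of myosin, and Ptma, prothymosin alpha, rose by 0.85 ± 0.04 and 0.88 ± 0.03. All 8 gains were near 2-fold or less.

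**Figure D2:**
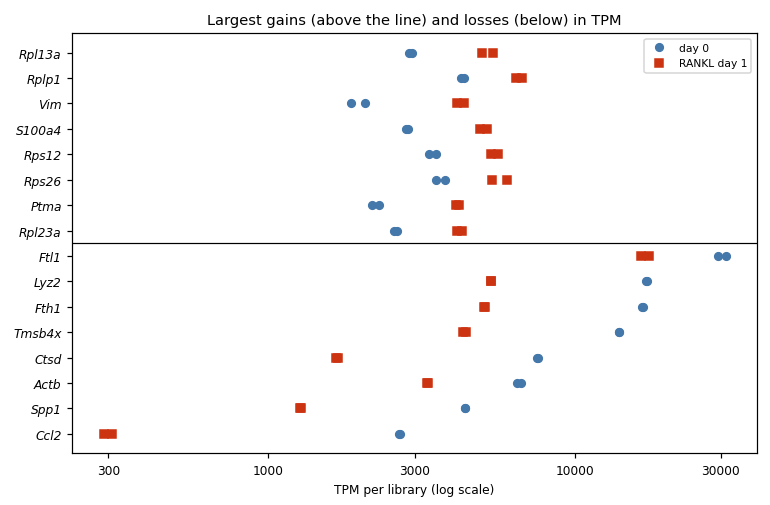
TPM per library on a log axis for the 8 genes that gained most TPM, above the line, and the 8 that lost most, below it, with circles for day 0 and squares for RANKL. Ftl1 stood near 30310 TPM at day 0 on average and 17040 with RANKL, a loss several times any gain.

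Genes of cell growth were raised more often than lowered. This held in each of 9 lists, on purine, pyrimidine, polyamine and folate synthesis, RNA polymerases, RNA modification, translation, nuclear transport and mitochondrial import. The shares raised in all 9 lay above the 32.8% of all genes, and most of the shifts were under 2-fold. Of the small nucleolar ribonucleoprotein and RNA methylation genes, 24 of 25 were raised and 0 lowered, with a median log2 fold change of 0.95. Nsun2, a methyltransferase of transfer RNA, went from 170.2 and 167 to 592 and 603 CPM, and Dkc1, the pseudouridine synthase of H/ACA particles, from 53.5 and 60.6 to 197 and 199 CPM. Nop56 and Nop58, core proteins of box C/D particles, rose by 1.45 ± 0.04 and 1.38 ± 0.05.

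For RNA polymerases I and III, which make ribosomal and transfer RNA, 22 of 34 tested genes were raised and 2 lowered. Polr1b, the second largest subunit of polymerase I, went from 33.8 and 37.4 to 122 and 116 CPM. Gtf3c5, part of the transcription factor TFIIIC, went from 18.8 and 16.8 to 143 and 159 CPM, a log2 fold change of 3.08 ± 0.08. Polr3g rose by 1.22 ± 0.14 while its paralog Polr3gl fell by 0.62 ± 0.17. Maf1, the repressor of polymerase III, was the other gene lowered, from 55.5 and 55.9 to 44.1 and 42.6 CPM, a call that was lost on log2 TPM (limma, adjusted p = 0.0539 and 0.0532 at pseudocounts of 0.1 and 1).

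Translation factors and their regulators followed, where 49 of 61 were raised and 5 lowered (median 0.42). Eif6, which keeps the ribosomal subunits apart, went from 116 and 109 to 264 and 279 CPM, and Eef1e1, a scaffold of the multisynthetase complex, from 32.5 and 36.6 to 81.6 and 71.9 CPM. Among those lowered were Eef2k, the kinase that inhibits elongation factor 2, from 27.2 and 25.7 to 15.4 and 16.4 CPM, and Eif2ak3, the stress kinase PERK, from 46 and 46.7 to 38.3 and 32.5 CPM, which are brakes on translation rather than factors. Eif4e3, a cap-binding protein, had a log2 fold change of -0.93 ± 0.10. For nuclear pores and nuclear transport, 43 of 53 were raised and 3 lowered. Nup35 and Rcc1, the exchange factor for RAN, rose by 1.37 ± 0.09 and 1.37 ± 0.05, while Kpna4, an importin that carries NF-kappaB subunits, went from 230.3 and 227 to 111 and 113 CPM.

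The mitochondrial import and proteostasis list had 31 of 37 genes raised and 1 lowered. Hspd1, the mitochondrial chaperonin HSP60, went from 419 and 420.3 to 1137 and 1172 CPM, and Tomm70a, an outer membrane import receptor, from 126 and 122 to 291 and 274 CPM. Timm17b was the member lowered, from 28.4 and 24.6 to 18.6 and 19 CPM. Carriers of the inner membrane, the SLC25 family, did not share this: 12 of 39 were raised and 12 lowered, with a median of -0.01. Slc25a45 fell from 78.5 and 72.5 to 17.7 and 16.1 CPM, and Slc25a39, which brings glutathione into mitochondria, rose from 114 and 102 to 185 and 203 CPM.

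In the purine list 12 of 18 were raised and 4 lowered. Impdh2, which commits inosine monophosphate to guanine nucleotides, went from 104 and 114 to 367 and 375 CPM, and Gart and Pfas, enzymes of the de novo path, rose by 1.26 ± 0.04 and 1.15 ± 0.06. The salvage genes Hprt and Adk were lowered, with log2 fold changes of -0.52 ± 0.05 and -0.37 ± 0.08. The others lowered were Prps2 and Adssl1, at -0.46 ± 0.08 and -0.45 ± 0.07. In the pyrimidine list 12 of 18 were raised and 4 lowered. Cad, the trifunctional enzyme that starts the path, went from 119 and 113 to 283 and 286 CPM, Ctps, CTP synthase, from 43.9 and 49.5 to 114 and 109.6 CPM, and Uck2, a uridine kinase, from 54.5 and 63.2 to 191 and 191 CPM. Ctps2, a second CTP synthase, went the other way, from 47 and 47.6 to 26.1 and 25.9 CPM.

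Of the folate and methionine genes 11 of 17 were raised and 5 lowered. Slc19a1, the reduced folate carrier, went from 17.9 and 18.3 to 61.1 and 66.1 CPM, and Shmt1, the cytosolic serine hydroxymethyltransferase, from 19.9 and 16.8 to 56.5 and 56.8 CPM. Aldh1l1, which burns off formyl-folate, fell from 19.5 and 19.3 to 3.34 and 2.69 CPM. Of the polyamine list 7 of 13 were raised and 4 lowered. Srm and Sms, the spermidine and spermine synthases, rose by 1.46 ± 0.05 and 1.34 ± 0.05, while Sat1 and Paox, which break polyamines down, had log2 fold changes of -1.08 ± 0.06 and -1.67 ± 0.14. The others lowered were Azin1 (-0.53 ± 0.05) and Oaz1 (-0.09 ± 0.04). Oaz1 was not called by DESeq2 (adjusted p = 0.0856) or on log2 TPM (limma, adjusted p = 0.144 at both pseudocounts). Its call was also lost in edgeR without the low-count filter (adjusted p = 0.0537) and with the 4 libraries alone (adjusted p = 0.0768). Leaving out 1 library, its log2 fold change ran from -0.107 to -0.074.

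**Figure D3:**
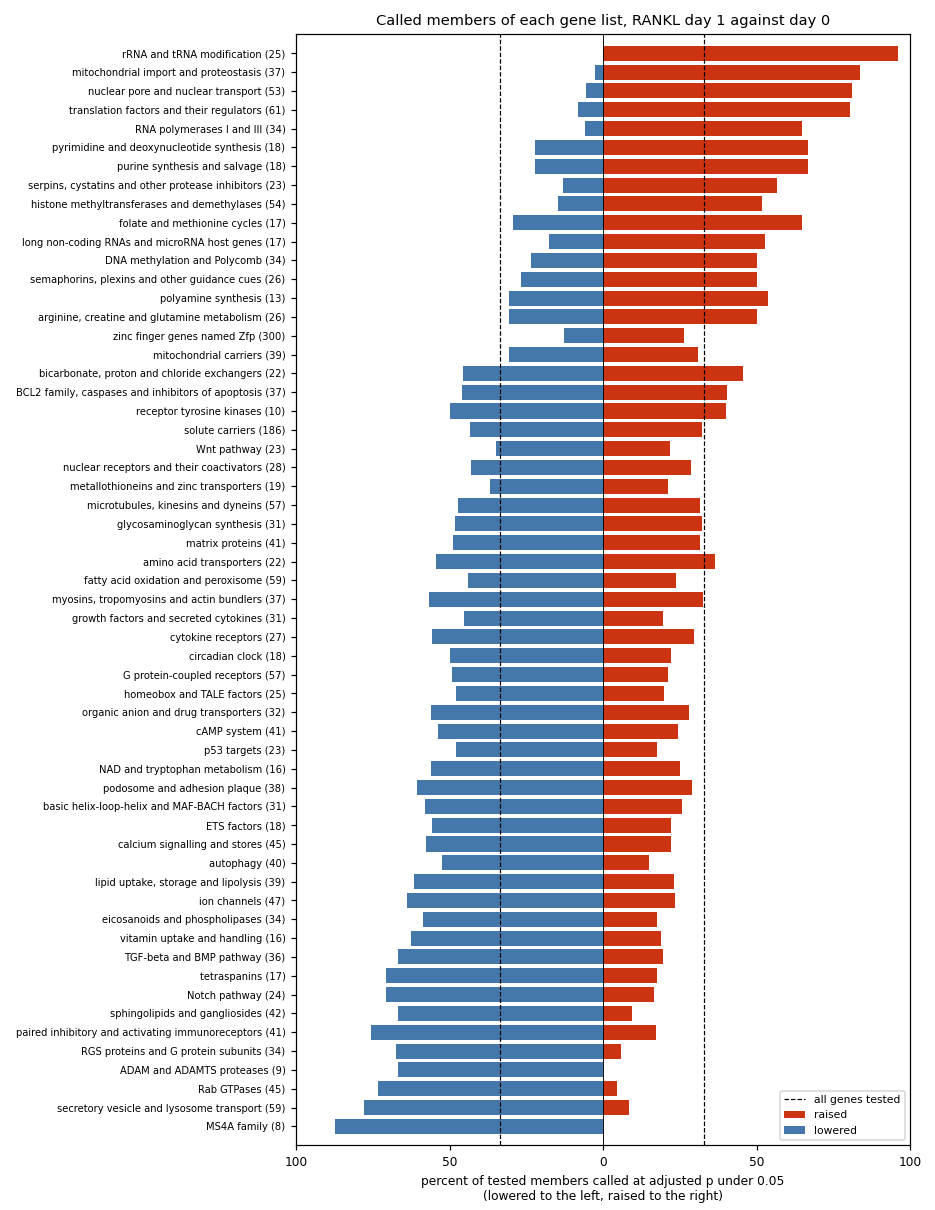
Percent of tested members called raised, to the right, and lowered, to the left, for each gene list described, with the number tested in brackets, ordered by the difference. Dashed lines mark the shares over all genes, 32.8% raised and 33.5% lowered. Most growth lists lie at the top, and the MS4A, secretory vesicle, Rab and ADAM lists at the bottom.

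Of the solute carriers, which move small molecules across membranes, 32.3% were raised and 43.5% lowered (60 and 81 of 186), against 32.8% and 33.5% of all genes tested, so that the share raised was near the background. Of the amino acid transporters 8 of 22 were raised and 12 lowered. Among those raised, Slc1a5, a glutamine carrier, went from 83.2 and 71.7 to 295 and 330.0 CPM, Slc7a5, the large neutral amino acid exchanger LAT1, from 64.3 and 63.2 to 145 and 156 CPM, and Slc7a1, the arginine carrier, from 116 and 105 to 222 and 216 CPM. Slc7a8, the related exchanger LAT2, fell from 663 and 664 to 113 and 102 CPM. Slc15a3 and Slc36a1, which export peptides and amino acids from lysosomes, fell from 370.1 and 345 to 30.9 and 35.7 CPM, and from 73.3 and 78.5 to 19.5 and 15.9 CPM.

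Of the bicarbonate, proton and chloride exchangers 10 of 22 were raised and 10 lowered. Slc4a7, a sodium bicarbonate cotransporter that loads base, went from 68.9 and 76.8 to 444 and 417 CPM, and Slc9b2, a sodium-proton exchanger known from osteoclasts, from 1.78 and 3.45 to 48.7 and 49.2 CPM. Slc9a9, an endosomal exchanger, fell from 114 and 114 to 3.17 and 3.49 CPM. Slc6a12, a betaine and GABA carrier, had 0.198 and 0.105 CPM at day 0 and 5.65 and 5.02 CPM with RANKL. Slc40a1, the iron exporter ferroportin, fell from 446 and 438 to 4.54 and 4.57 CPM, and it fell with the ferritins described above. Slc45a3 rose from 0.692 and 1.67 to 18.7 and 16.9 CPM, and Slc46a3, a lysosomal carrier, fell from 24.4 and 19.7 to 1.46 and 1.97 CPM.

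Ion channels were mostly lowered (11 of 47 were raised and 30 lowered, median -0.67). Trpm2, a channel opened by ADP-ribose, fell from 22.6 and 23.2 to 2.57 and 2.87 CPM, and Trpv4, a channel that senses stretch and heat, from 16.7 and 18 to 2.83 and 3.4 CPM. Cacna1a and Cacna1d, voltage-gated calcium channel pores, fell by 2.50 ± 0.13 and 2.39 ± 0.27, the first of which was not called on log2 TPM plus 0.1 (limma, adjusted p = 0.0539). Auxiliary subunits went up, Cacnb2 to 6.17 and 5.91 CPM from 1 read over the day 0 group, and Cacng8 from 0.198 and 0.837 to 5.57 and 7.26 CPM. Kcnn4, the calcium-activated potassium channel of macrophages, rose from 191 and 184 to 305 and 317 CPM.

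Calcium stores and signalling, which drive NFATc1, were lowered more often than raised (10 of 45 were raised and 26 lowered, median -0.30). Orai2, a store-operated channel subunit, rose from 37.1 and 41.4 to 123 and 129.7 CPM, and Plcb4, a phospholipase C, from 1.29 and 2.3 to 15.8 and 15.1 CPM. Slc8a1 and Slc8b1, sodium-calcium exchangers of the plasma membrane and of mitochondria, fell from 42.4 and 36.6 to 8.31 and 6.09 CPM, and from 98.5 and 85.1 to 31.4 and 32.4 CPM. Atp2a3, a calcium pump of the endoplasmic reticulum, fell from 80.3 and 74.7 to 22.4 and 25.5 CPM, and Camk1, a calmodulin kinase, from 216 and 213 to 40.6 and 37 CPM. Zinc carriers and metallothioneins had 4 of 19 raised and 7 lowered. Slc39a8, a zinc and manganese importer, fell from 18 and 21 to 4.54 and 3.23 CPM.

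Organic anion and ATP-driven transporters were lowered more often than raised (9 of 32 were raised and 18 lowered), with 3 of the switched-off genes among them. Against this, Slco4a1, a carrier of organic anions including thyroid hormone, went from 1.68 and 1.67 to 90.8 and 92.4 CPM. Abcg1, which exports cholesterol, rose from 33.8 and 36 to 107 and 104 CPM, and Abcd2, a peroxisomal fatty acid transporter, fell from 11.5 and 13.3 to 0.942 and 1.34 CPM.

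Src, the tyrosine kinase of podosomes without which osteoclasts form no ruffled border, stood at 0.89 and 1.46 CPM at day 0 and 156 and 164 CPM with RANKL, a log2 fold change of 7.08 ± 0.13 (edgeR, adjusted p = 6.55e-31). Its substrate Cttn, cortactin, rose from 6.03 and 3.45 to 26 and 25.1 CPM. In the podosome list 11 of 38 were raised and 23 lowered, with a median of -0.31. Ptk2b, the kinase PYK2, fell from 175 and 171 to 57 and 55.7 CPM, and Zyx, zyxin, from 83.1 and 80.9 to 18.5 and 24.7 CPM. Tns3 rose from 239.8 and 236 to 573 and 579 CPM while Tns1, another tensin, fell from 14.1 and 11.2 to 3.85 and 3.14 CPM, a call lost on log2 TPM (limma, adjusted p = 0.204 and 0.106).

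Dock5, a RAC exchange factor needed for osteoclast sealing zones, went from 28.7 and 30.2 to 293 and 283 CPM, while Dock4 fell from 85.5 and 87 to 19.8 and 18.6 CPM. Srgap3, a RAC GTPase-activating protein, went from 4.25 and 4.91 to 77.7 and 68.6 CPM, Tiam1 from 29.1 and 32.3 to 90.1 and 91.1 CPM, and Fgd4, an exchange factor for CDC42, fell from 176 and 188 to 22.7 and 21.7 CPM.

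Several unconventional myosins rose, in a list where more genes were lowered than raised (12 of 37 were raised and 21 lowered). Myo10, the motor of filopodia, went from 33.8 and 34.2 to 152 and 154 CPM, and Myo1e from 98.6 and 96.5 to 352 and 354 CPM. Tpm1, tropomyosin 1, rose from 60.8 and 62.4 to 193 and 196 CPM. Marcks and Marcksl1, which link actin to the membrane, had log2 fold changes of -2.54 ± 0.07 and -2.25 ± 0.07, and Lcp1, the leukocyte actin bundler L-plastin, fell from 2950 and 2906 to 1047 and 1050 CPM. Among microtubule genes 18 of 57 were raised and 27 lowered. Tubb6 rose from 239.8 and 231 to 499.8 and 501 CPM, and Tubb2a and Tubb2b, whose sequences are nearly identical so that reads may be split between them, had log2 fold changes of -2.65 ± 0.06 and -2.64 ± 0.26. Kif5c, a kinesin heavy chain, fell from 8.51 and 10.1 to 0.685 and 0.358 CPM.

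Tetraspanins, which organise membrane domains, were lowered in 12 of 17 cases and raised in 3. Cd81 and Cd53 fell from 108 and 107 to 29.6 and 33.5 CPM, and from 321 and 323 to 84.1 and 71.4 CPM. Cd82 went from 25.5 and 24.1 to 121 and 119 CPM, an increase, and Cd63, the lysosomal tetraspanin, was nearly level at 299 and 304 CPM at day 0 and 344 and 354 CPM with RANKL, though called raised (0.21 ± 0.04).

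Vesicle traffic genes were mostly lowered. Of the Rab GTPases, which label and move vesicles, 2 of 45 were raised and 33 lowered. Rab8b fell from 529 and 544 to 174 and 168 CPM, Rab32, a GTPase of lysosome-related organelles, from 257 and 276 to 93.3 and 88.5 CPM, and Rab43 from 68.3 and 68.9 to 18.7 and 21.9 CPM. The members raised were Rab34 (from 12.1 and 11.3 to 24.5 and 21.4 CPM) and Rab20 (from 24 and 20.9 to 26.4 and 31.4 CPM), the second of which lost its call without replicate 2 of either group (adjusted p = 0.101 and 0.168). For secretory vesicle and lysosome transport, a list of sorting nexins, SNAREs, synaptotagmins and adaptor proteins, 5 of 59 were raised and 46 lowered (median -0.49). Snx2 went from 985 and 986 to 195 and 199 CPM, and Snx10, which osteoclasts need for resorption, rose from 76.4 and 78.3 to 102 and 97.2 CPM. Stx11, a syntaxin of cytotoxic granules, rose from 7.81 and 8.26 to 21.8 and 24.2 CPM.

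Autophagy genes leaned the same way (6 of 40 were raised and 21 lowered). Wipi1, which marks forming autophagosomes, fell from 28.5 and 26.9 to 4.03 and 3.49 CPM, Ulk2, a starting kinase, from 51 and 52.6 to 17 and 16.5 CPM, and Tecpr1 from 71.9 and 70.1 to 19.5 and 18.4 CPM. Atg2b and Atg4a rose by 0.59 ± 0.08 and 0.56 ± 0.12. The changes were mostly small: none of the 40 tested genes was raised by 2-fold, and 4 (10%) were lowered by that much, against 13.3% of all genes tested.

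**Figure D4:**
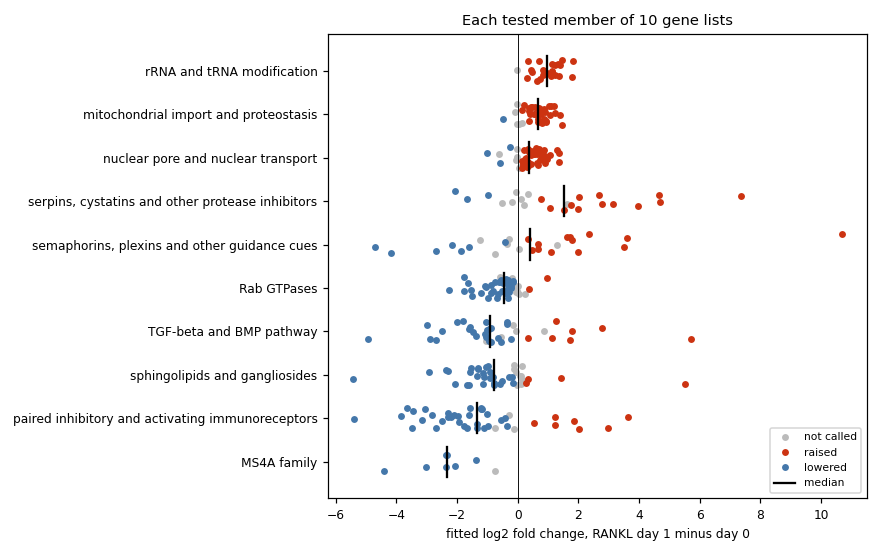
Fitted log2 fold change of every tested member of 10 lists, with raised members in red, lowered in blue, those not called in grey and the list median as a bar. Growth lists form tight clusters right of 0, and Rab GTPases and sphingolipid genes a spread left of it. Guidance cues and TGF-beta genes reach far to both sides.

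Ligands for other cells changed in opposite directions. Among growth factors and cytokines 6 of 31 were raised and 14 lowered, 5 and 12 of them by at least 2-fold. Il34, a second ligand of the macrophage receptor CSF1R, was at 0 reads at day 0 and 8.99 and 10.1 CPM with RANKL, at least 62.6-fold higher. Pdgfa and Pdgfb, platelet-derived growth factors, went from 3.56 and 3.76 to 30.4 and 29 CPM, and from 21.7 and 23.6 to 89.4 and 95 CPM. Igf1, a growth factor for bone-forming cells, fell from 408 and 421 to 55.4 and 60.7 CPM, and Hgf, the ligand of MET, from 6.03 and 5.65 to 1.11 and 1.34 CPM. Gdf15, a stress cytokine counted in the TGF-beta and p53 lists and not in this one, fell from 38.5 and 40.05 to 1.11 and 1.43 CPM. So Met and its ligand gene Hgf moved in opposite directions in the same libraries.

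Of the semaphorins, plexins, ephrins and related genes 13 of 26 were raised and 7 lowered. Sema4d, which osteoclasts release to inhibit osteoblasts, went from 132 and 132 to 655 and 674 CPM, and Plxna4, a semaphorin receptor, from 13.2 and 11.5 to 140.4 and 139 CPM. Nrp1, neuropilin 1, a co-receptor for semaphorin 3A and VEGF, fell from 714 and 711 to 26.4 and 27.9 CPM, and Sema4c from 53.8 and 53.6 to 2.74 and 3.14 CPM. Plxnc1, a receptor for semaphorin 7A, fell from 92.8 and 91.2 to 13.5 and 14.9 CPM while its ligand gene Sema7a was switched on. The list median was 0.40.

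Of the cytokine receptors 8 of 27 were raised and 15 lowered, with Ghr among those raised. Il2rg, the common gamma chain, went from 39.8 and 36.9 to 233 and 239.8 CPM, Csf2rb2, a beta chain for interleukin 3, from 32.7 and 29 to 107 and 102 CPM, and Il1rn, which is a secreted antagonist rather than a receptor, from 28.3 and 25.4 to 77.1 and 74 CPM. Il21r fell from 65 and 75 to 6.34 and 4.75 CPM, Il17ra from 83.9 and 83.7 to 19.6 and 22.7 CPM, and Lifr from 10.1 and 8.89 to 0.771 and 1.43 CPM. Receptor tyrosine kinases had 4 of 10 raised and 5 lowered. Besides Fgfr1 and Met, Mst1r, the receptor related to MET, went from 1 read over the day 0 group to 5.91 and 5.11 CPM. Mertk, which recognises dying cells, fell from 80.4 and 80.5 to 3.51 and 3.67 CPM, and Insr, the insulin receptor, from 33.7 and 32.5 to 21.7 and 20.2 CPM.

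TGF-beta and BMP genes were lowered in 24 of 36 cases and raised in 7, with a median of -0.92. The receptors Tgfbr2 and Acvrl1 fell from 276 and 275 to 42.1 and 42.3 CPM, and from 30.3 and 28.9 to 3.08 and 4.84 CPM. Id1, a target of BMP signalling counted in the basic helix-loop-helix list, fell from 51.9 and 54.3 to 3.25 and 4.3 CPM. Acvr2a, an activin receptor, rose from 8.21 and 6.59 to 25.9 and 25.3 CPM, Smurf1, a ubiquitin ligase for SMAD proteins, from 36.7 and 36.3 to 124 and 119 CPM, and Pmepa1, an inhibitor of SMAD phosphorylation, from 2.37 and 1.57 to 13.2 and 14 CPM. Notch genes were also lowered (4 of 24 were raised and 17 lowered). Notch1 fell from 69.1 and 71.3 to 12.4 and 10.9 CPM, and its ligand gene Jag1 from 42.1 and 38.9 to 13.5 and 13.7 CPM, while Dtx2 rose from 18.9 and 16.3 to 64.8 and 67.4 CPM. For Wnt genes 5 of 23 were raised and 8 lowered. Fzd7, a Wnt receptor, fell from 48.6 and 42.4 to 10.6 and 12.4 CPM, Wls, which lets Wnt proteins leave the cell, from 90.1 and 102 to 36 and 37.9 CPM, and Ctnnb1, beta-catenin, rose from 399.5 and 398 to 520.1 and 538 CPM.

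Of the G protein-coupled receptors 12 of 57 were raised and 28 lowered. Gpr132, a receptor that responds to acid, went from 0.989 and 1.67 to 78.8 and 81.5 CPM, yet Gpr65, another such receptor, fell from 46.1 and 52.6 to 4.71 and 5.55 CPM. Adgrl2, an adhesion receptor, rose from 18.3 and 19.7 to 206 and 199 CPM. S1pr1, the sphingosine 1-phosphate receptor by which osteoclast precursors leave bone, fell from 53.6 and 58.7 to 3.43 and 2.51 CPM. Downstream, 23 of 34 RGS proteins and G protein subunits were lowered and 2 raised. Gnb4 rose from 11.1 and 12.8 to 34.5 and 32.6 CPM, and Rgs1 and Gng2 fell from 25.9 and 27.4 to 3.51 and 2.24 CPM, and from 157 and 149 to 29.98 and 27.1 CPM.

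Within the cyclic AMP system (10 of 41 were raised and 22 lowered), phosphodiesterases moved both ways. Pde2a went from 4.05 and 4.5 to 174 and 176 CPM, Pde4b from 3.26 and 3.56 to 14.2 and 14.6 CPM, and Pde7b fell from 9.69 and 10.1 to 1.54 and 1.25 CPM. Prkacb, a catalytic subunit of protein kinase A, fell from 507 and 491 to 176 and 173 CPM, and Crem from 11.9 and 13.7 to 3.08 and 2.96 CPM. Of its anchoring proteins, Akap6 went from 3 reads over the day 0 group to 48.5 and 48.2 CPM, and Akap12 fell from 5.74 and 5.44 to 0.6 and 0.269 CPM.

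Bcl2l1 (BCL-XL) and Bcl2, which protect from apoptosis, fell from 232 and 233 to 15.5 and 18.5 CPM, and from 25.9 and 28.9 to 3.94 and 3.76 CPM, while Bcl2l11 (BIM) and Bmf, which promote it, rose from 23.9 and 21.6 to 68.7 and 64.8 CPM, and from 2.27 and 1.36 to 7.88 and 6.27 CPM. Birc3, an inhibitor of apoptosis and target of NF-kappaB, went from 22.8 and 22.4 to 177 and 173 CPM. Bcl2a1b had a log2 fold change of -2.50 ± 0.16, but reads may be split among the near-identical Bcl2a1 genes. In this list 15 of 37 were raised and 17 lowered. For p53 targets 4 of 23 were raised and 11 lowered, with Sesn1 down from 139 and 137 to 18 and 18.7 CPM and Mdm2 up from 166 and 156 to 319.8 and 321 CPM.

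Basic helix-loop-helix and MAF-BACH factors were lowered in 18 of 31 cases and raised in 8. Maf, which maintains resident macrophages, fell from 570.3 and 582 to 23.6 and 16.5 CPM, and Epas1 (HIF-2alpha) and Lyl1 from 47.2 and 49.7 to 3.17 and 2.69 CPM, and from 27.7 and 34.2 to 2.31 and 1.79 CPM. Bhlhe40 went the other way, from 6.53 and 7.53 to 152 and 144 CPM, while its paralog Bhlhe41 fell from 41.4 and 39.4 to 6.68 and 5.11 CPM. Both also belong to the clock list, in which 4 of 18 were raised and 9 lowered, with the clock output gene Dbp down from 12.2 and 11.8 to 4.03 and 2.15 CPM and Cry1 up from 7.12 and 7.32 to 17 and 12.5 CPM.

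Among ETS factors 4 of 18 were raised and 10 lowered. Etv5 and Etv1, which report on growth factor signalling through ERK, fell from 239.6 and 239 to 17.6 and 22.9 CPM, and from 27.9 and 26.2 to 1.97 and 2.06 CPM, and Fli1 and Ets2 from 73.1 and 69.6 to 12.9 and 12.9 CPM, and from 333 and 315 to 81.9 and 79.7 CPM. Spi1, which encodes PU.1, the factor shared by macrophages and osteoclasts, rose from 342 and 326 to 511 and 539 CPM. For homeobox and TALE factors 5 of 25 were raised and 12 lowered. Zeb1, a repressor known from epithelial to mesenchymal transition, went from 2.08 and 1.67 to 40.7 and 33.9 CPM, and Pou2f2 fell from 10.9 and 14 to 2.31 and 1.61 CPM. Nuclear receptors and coactivators had 8 of 28 raised and 12 lowered. Ppargc1b, a coactivator of mitochondrial genes needed for osteoclast activity, rose from 3.66 and 3.35 to 24.8 and 25.4 CPM, and Rxra, the retinoid X receptor, fell from 107 and 117 to 15.7 and 20.3 CPM.

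Chromatin genes were raised more often than lowered, mostly by less than 2-fold. Of the histone methyltransferases and demethylases 28 of 54 were raised and 8 lowered, 2 in each direction by at least 2-fold. Dot1l, the lysine 79 methyltransferase, and Prmt1, the main arginine methyltransferase, rose from 131 and 127 to 363 and 373 CPM, and from 102 and 108 to 244 and 239.5 CPM. Among DNA methylation and Polycomb genes 17 of 34 were raised and 8 lowered, 3 in each direction by at least 2-fold. Jarid2, a Polycomb recruiter, went from 77 and 72.2 to 347 and 344 CPM, and Cbx7 rose from 4.75 and 4.39 to 20.5 and 20.1 CPM while Cbx6 fell from 29.97 and 31.1 to 8.22 and 9.14 CPM. Genes named Zfp, most of them DNA-binding zinc finger proteins, included fewer calls: 79 of 300 were raised and 38 lowered, and 183 of 300 were not called. Their levels were low, the 300 genes summing to 2455 and 2477 TPM at day 0 and 2598 and 2654 TPM with RANKL. Low counts make a call harder to reach, and their part in the fewer calls was not tested. Zfp263 rose from 35.9 and 38.3 to 153 and 151 CPM, and Zfp36l1, which is an RNA-binding protein that destabilises messages, fell from 69.9 and 69 to 20.5 and 22 CPM.

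Paired inhibitory and activating receptors were lowered in 31 of 41 cases, 27 of them by at least 2-fold, against a background of 13.3% for losses of that size. Cd300lh and Cd33 fell from 108 and 103 to 7.96 and 6.45 CPM, and from 7.12 and 10.7 to 0.685 and 0.896 CPM, and Icosl, a ligand for T cells, from 25.1 and 25.5 to 1.37 and 2.69 CPM. The 7 raised included Pira2 (from 18.4 and 16.5 to 139 and 138 CPM), Lilra6 (from 1.09 and 0.837 to 11.8 and 12.3 CPM) and Pirb (from 61.9 and 63.8 to 152 and 144 CPM), paired immunoglobulin-like receptors whose near-identical copies may share reads, and Cd274 (PD-L1, from 6.63 and 6.8 to 23.2 and 25.2 CPM). MS4A genes were lowered in 7 of 8 cases, all by at least 2-fold, with Ms4a7 and Ms4a6d falling from 47.1 and 47 to 10.2 and 8.6 CPM, and from 129 and 134 to 25.9 and 24.6 CPM. Members of this family also resemble each other in sequence.

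Of the serpins, cystatins and other inhibitors 13 of 23 were raised and 3 lowered, 12 and 2 by at least 2-fold, with a median of 1.53. Serpinb6b, Serpinb1a and Serpinb8, intracellular serpins, went from 3.07 and 4.71 to 95.8 and 101 CPM, from 1.09 and 1.05 to 17.5 and 15.8 CPM and from 13.3 and 13.3 to 81.7 and 88.2 CPM, while Serpinb6a, a neighbour of the first in sequence, fell from 474 and 467 to 235 and 237 CPM. ADAM and ADAMTS proteases had 0 of 9 raised and 6 lowered. Adam10 and Adam9, sheddases of the membrane, fell from 452 and 475 to 229 and 228 CPM, and from 337 and 342 to 148 and 144 CPM.

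Of the matrix genes 13 of 41 were raised and 20 lowered. Dcn, the proteoglycan decorin, had 0 reads at day 0 and 7.11 and 7.62 CPM with RANKL, at least 48.2-fold higher. Vcan, versican, went from 3.76 and 6.8 to 39.5 and 39.2 CPM. Fn1, fibronectin, fell from 96.5 and 97.8 to 15.7 and 12.7 CPM, and Lama3 from 9.99 and 10.5 to 0.514 and 1.25 CPM. Lamb2 fell from 8.21 and 8.68 to 1.11 and 1.25 CPM, but was not called on log2 TPM (limma, adjusted p = 0.665 and 0.689). Of the glycosaminoglycan genes 10 of 31 were raised and 15 lowered. Sdc1, the heparan sulfate proteoglycan syndecan 1, went from 6.43 and 5.12 to 246 and 244 CPM, and Gpc1, glypican 1, from 5.14 and 6.69 to 42.6 and 39.4 CPM. Chpf, a chondroitin polymerising factor, was switched on (0.989 and 0.418 CPM at day 0 and 11.4 and 14 CPM with RANKL), while Xylt2, which starts the chains, and Sulf2, which trims heparan sulfate, fell from 176 and 168 to 44.4 and 40.4 CPM, and from 154 and 161 to 38.1 and 39.6 CPM.

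Lipid mediators and sphingolipids were lowered. In the eicosanoid list 6 of 34 were raised and 20 lowered. Ptgs1, cyclooxygenase 1, and Hpgds, the synthase of prostaglandin D2, fell from 54.7 and 48.3 to 6.34 and 5.38 CPM, and from 151 and 158 to 10.8 and 9.5 CPM. With Hpgd off as well, genes for making and for breaking prostaglandins were lowered side by side, while the prostaglandin E synthase Ptges2 rose from 15 and 18 to 24.9 and 28.2 CPM. Of the sphingolipid genes 4 of 42 were raised and 28 lowered, 16 of the latter by at least 2-fold. B4galt6, which makes lactosylceramide, fell from 315 and 324 to 41.6 and 42.4 CPM, and Smpdl3a from 196 and 201 to 49.6 and 44.6 CPM. B4galnt1, which builds complex gangliosides, rose from 51.7 and 55.8 to 141 and 149.6 CPM, and Spns2, the exporter of sphingosine 1-phosphate, stood at 0.0989 and 0.105 CPM at day 0 and 4.8 and 5.55 CPM with RANKL.

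Lipid uptake and storage followed (9 of 39 were raised and 24 lowered). Cd36, the scavenger receptor for fatty acids and oxidised lipoprotein, fell from 1394 and 1401 to 182 and 181 CPM, Nceh1, which frees cholesterol from esters, from 392 and 421 to 79.9 and 81.6 CPM, and Fabp3 from 7.42 and 7.63 to 0.171 and 0.269 CPM. Acsl1, which activates fatty acids, rose from 58.2 and 57 to 239 and 256 CPM, and Fabp5 from 201 and 177 to 342 and 360.1 CPM. Fatty acid oxidation and peroxisome genes were lowered in 26 of 59 cases and raised in 14. Cat, catalase, fell from 364 and 384 to 154 and 147 CPM, and Acox3 from 62.3 and 64.3 to 12.2 and 15.8 CPM, while Pex10 and Pex16, which build peroxisomes, rose from 5.24 and 6.69 to 31 and 33.1 CPM, and from 10.4 and 10.3 to 27.5 and 29.6 CPM.

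Of the genes of arginine, creatine and glutamine metabolism 13 of 26 were raised and 8 lowered. Ass1, which makes argininosuccinate for arginine recycling, went from 7.81 and 9.1 to 68.3 and 74 CPM, while Arg1, arginase, fell from 9.4 and 10.3 to 3.34 and 2.42 CPM. Gatm and Ckb, of creatine synthesis and use, fell from 112 and 104 to 31.1 and 28.8 CPM, and from 788 and 731 to 216 and 229 CPM. Among NAD genes (4 of 16 were raised and 9 lowered), Nadk, the NAD kinase, rose from 182 and 173 to 457 and 485 CPM, and Nampt, of NAD salvage, fell from 174 and 183 to 111 and 103 CPM. Vitamin handling was lowered in 10 of 16 cases and raised in 3, and 43.8% of the list fell at least 2-fold against 13.3% of all genes tested. Tcn2, the carrier of vitamin B12, fell from 121 and 128 to 13.5 and 13.2 CPM, Folr2, the macrophage folate receptor, from 163 and 172 to 39.4 and 37 CPM, and Dhrs3, a retinal reductase, from 231 and 219 to 22.7 and 23.6 CPM.

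Among long non-coding RNAs and microRNA host genes 9 of 17 were raised and 3 lowered. The small nucleolar RNA hosts Snhg5 and Snhg3 went from 10.9 and 10.1 to 38 and 38.3 CPM, and from 12.4 and 11.3 to 37.7 and 38.5 CPM, and Mir17hg, host of the miR-17-92 cluster, from 10.9 and 12.3 to 42 and 39.5 CPM. Neat1, the scaffold of paraspeckles, fell from 531 and 565 to 335 and 348 CPM, and Malat1 was lowered by 0.16 ± 0.04.

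Some genes changed the shares of the transcripts they made. Of 4021 genes with at least 50 counts in every library and more than 1 transcript holding 10% of them, 70 (1.74%) had changed transcript usage at an adjusted p under 0.05 (edgeR's diffSpliceDGE, Simes method per gene), and 28 (0.696%) also had a share that moved by at least 25 percentage points in separated libraries. Of those 28, 13 were raised or lowered at least 2-fold as genes and 6 were not called as genes. Shares come from estimates that divide reads among overlapping transcripts, so they are less certain than gene counts. The estimate was coarse for low genes: the largest count of a Stradb transcript in a library was 115.3.

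The osteoclast phosphatase gene Acp5 and the calcineurin regulator gene Rcan1 changed the shares of their starts. Acp5-202 held 0% and 12.7% at day 0 and 93.4% and 92% with RANKL, while Acp5-201, which starts 1217 bases further upstream, held 100% and 83.7% at day 0 and 6.64% and 7.99% with RANKL. The day 0 shares rest on few counts, 0 and 13.7 for Acp5-202 and 102 and 90.4 for Acp5-201. With RANKL both forms had more counts, 5730 and 5500 for Acp5-202 and 408 and 477 for Acp5-201, so the upstream form lost share without falling. Rcan1-201 held 28.2% and 15.8% at day 0 and 80.9% and 81.6% with RANKL, while Rcan1-202, which starts about 66 kb upstream, fell from 71.8% and 84.2% to 19.1% and 18.4%. In counts, Rcan1-201 went from 77.2 and 41.4 to 832 and 799, and Rcan1-202 stayed between 180.3 and 221. The adjusted p were 0.011 for Acp5 and 0.00826 for Rcan1. Limits of 15 and 40 points on the share could not lose either call, since both shifts were larger. Acp5 fell below a minimum of 200 counts a gene and was not tested there. With same-numbered libraries taken as pairs the Acp5 call was lost, and in a fit of the 4 libraries alone it was kept. The Rcan1 call was kept in all of these.

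The windows before these starts are shown because the shift in share between starts is the finding, and the pair of genes was chosen after the values were seen. They are chr9:22130599-22130848 and chr9:22131866-22132115 for Acp5 and chr16:92400079-92400328 and chr16:92466170-92466419 for Rcan1, all on the minus strand, with the same source, length and capitals as above.
Acp5-202: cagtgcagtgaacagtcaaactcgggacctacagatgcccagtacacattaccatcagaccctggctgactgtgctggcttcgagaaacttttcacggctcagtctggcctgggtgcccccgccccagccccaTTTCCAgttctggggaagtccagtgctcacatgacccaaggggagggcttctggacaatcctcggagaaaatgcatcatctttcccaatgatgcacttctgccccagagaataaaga
Acp5-201: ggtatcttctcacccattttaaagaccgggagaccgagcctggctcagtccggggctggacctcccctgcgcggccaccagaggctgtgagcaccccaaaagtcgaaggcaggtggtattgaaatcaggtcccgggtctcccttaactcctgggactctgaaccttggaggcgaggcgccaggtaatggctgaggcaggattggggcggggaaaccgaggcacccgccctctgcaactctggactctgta
Rcan1-201: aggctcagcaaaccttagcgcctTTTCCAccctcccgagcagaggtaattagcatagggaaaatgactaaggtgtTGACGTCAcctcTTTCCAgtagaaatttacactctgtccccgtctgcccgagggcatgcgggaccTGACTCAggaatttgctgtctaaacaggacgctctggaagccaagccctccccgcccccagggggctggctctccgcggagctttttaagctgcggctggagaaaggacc
Rcan1-202: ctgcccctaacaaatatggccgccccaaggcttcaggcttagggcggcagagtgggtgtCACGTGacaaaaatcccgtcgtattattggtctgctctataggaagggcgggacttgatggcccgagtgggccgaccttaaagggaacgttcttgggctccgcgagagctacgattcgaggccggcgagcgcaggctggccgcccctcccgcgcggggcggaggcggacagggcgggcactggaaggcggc

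The Rcan1-201 window, the start that gained, held the NFAT letters 227 and 163 bases before the start (as TTTCCA, the reverse strand), the cyclic AMP response element 175 bases before it and the AP-1 letters 110 bases before it. The Rcan1-202 window held none of these and an E-box. The Acp5-202 window held the NFAT letters once, 117 bases before the start, and the Acp5-201 window matched no motif. Over the 7719 windows of tested genes the AP-1 letters occurred in 4.29%, the cyclic AMP response element in 3.1%, the NFAT letters in 14.3% and the E-box in 8.69%. A match is a description of these letters and not a binding site.

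Other genes among the 8 with the largest shifts were Tsc22d1, Loxl3, Sept9, Crocc, Taf5l and Stradb. Tsc22d1-201, the short form of a leucine zipper protein that starts about 89 kb downstream of the long forms, held 12.7% and 9.4% at day 0 and 83.5% and 83.9% with RANKL. Sept9-201, a form of septin 9 with its own start, held 3.63% and 2.66% at day 0 and 58.3% and 53.6% with RANKL. Loxl3-202, of a lysyl oxidase-like enzyme, held 0% and 0% at day 0 and 77.5% and 69.5% with RANKL, while the gene as a whole did not pass the test (-0.04 ± 0.12). Taf5l-201 held 12.8% and 6.05% at day 0 and 63.3% and 51.7% with RANKL. Stradb lost Stradb-201, its most used transcript at day 0, from 60.4% and 38.9% to 0%, as the gene fell by 1.01 ± 0.17, a call lost on log2 TPM plus 0.1 (limma, adjusted p = 0.0511). Limits of 15 and 40 points on the share could not lose any of these 8 calls, since all the shifts were larger. Tsc22d1, Crocc and Stradb fell below a minimum of 200 counts a gene and were not tested there. In a fit of the 4 libraries alone the usage calls of Crocc and Taf5l were lost. That of Taf5l was also lost with same-numbered libraries taken as pairs.

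**Figure D5:**
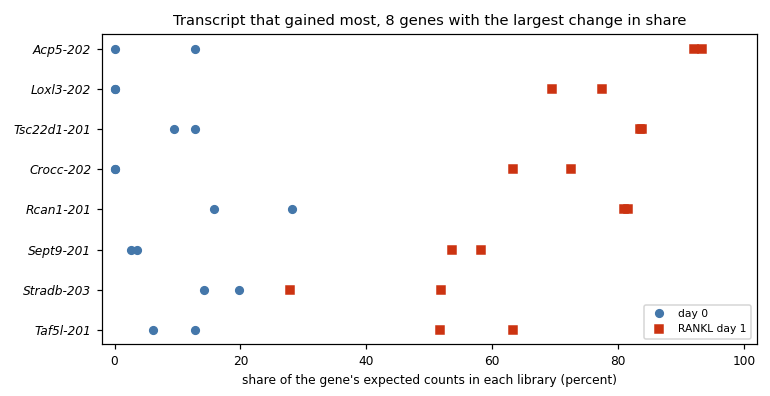
Share of the gene's expected counts, in percent, held by the transcript that gained most in each of the 8 genes with the largest change in share, with circles for day 0 libraries and squares for RANKL libraries. The RANKL points lie to the right of the day 0 points in all 8, as the choice of the gaining transcript implies, with the widest gap for Acp5-202.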

How the data were processed

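RNA of 6 libraries (3 groups of 2) was extracted with a column kit and made into libraries with a SMARTer kit, per the labels' protocols. The submitters' processing notes name Trimmomatic 0.39, STAR, RSEM 1.3.1, DESeq2 1.26.0 and the build GRCm38 (mm10), without their order. No annotation and no STAR version is named there. Deposited by the authors were expected counts, estimated per gene and per transcript and not normalized, TPM, scaled by the authors for length and library total, and FPKM, not used here.

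Expected counts were rounded. Genes kept by filterByExpr (minimum count 10, minimum total 15) were fitted in edgeR 4.0.16 (R 4.3.3) with TMM factors and 1 mean per group over all 6 libraries, and RANKL day 1 was contrasted with day 0. Residual degrees of freedom were 3. With 2 libraries a side a permutation cannot go below a two-sided p of 0.333, so tests rest on spread pooled over genes. CPM used TMM-scaled totals. Folds against 0 counts used a floor of 3 counts over the group; for 1 to 3 counts an exact 95% interval covers counting error only. Scripts were tested on simulated data. Coordinates and transcript names are from GENCODE M21, in which 45143 of 45706 genes have their identifier.

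Genes were named by rule: up to 15 genes switched on and 15 off with the highest TPM, the 8 with the largest gain and loss of TPM, up to 4 raised and 4 lowered members of each of 60 lists with at least 5 CPM and separated libraries, the 8 with the largest change in transcript share, and macrophage markers. Any further gene was picked with its values in view. The comparison, lists and members were chosen with earlier results of these data known. The contents of 5 lists were corrected after values were seen (the Rab list, for example, then held GTPases only), as was the limit of 100 bases for a promoter entry. Some genes and lists are not reported here. Genes sharing a symbol were counted once, by the copy with most counts. Alternatives were DESeq2 1.42.0, limma 3.58.1 on log2 TPM, RLE factors, other filters, the 4 libraries alone, a replicate block and leaving out each library.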

Additional observations from a re-analysis of the deposited data

How the results depend on the processing

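Counts of genes raised, lowered, and changed at least 2-fold stayed within 1.5 times under every alternative: raised genes ran from 3294 (limma on log2 TPM plus 1) to 4103 (no low-count filter), and lowered genes from 3397 to 4128. Of the genes raised and lowered at least 2-fold, 732 and 1275 were shared with limma on log2 TPM plus 1, the least of any full gene set. Leaving out 1 library gave 3552 to 3642 raised and 3704 to 3762 lowered genes. The raised share of calls ran from 48.7% to 50.5%, and 2 genes were called in opposite directions on log2 TPM. With the replicate block 3971 genes were raised and 4058 lowered. The titles number only 1 library of each group, and the unnumbered library was called replicate 2 here. Deviations of same-numbered libraries correlated at -0.0633, -0.0268 and -0.00672. Such weak correlations do not settle whether the samples were paired. Switched-off genes numbered 14, and 5 at a limit of 20 CPM. Without 1 library they ran from 14 to 22, and the switched-on genes from 29 to 37. These sets could not lose any of the 14 or 27, since leaving out a library only relaxes the rule on the same CPM values. On TPM in place of CPM, 16 of 27 and 7 of 14 were shared. Changed transcript usage held for 28 genes, 51 at 15 points and 13 at 40 points. With 200 counts a gene it held for 18, and Acp5, Tsc22d1, Crocc and Stradb fell below that minimum and were not tested. A fit of the 4 libraries alone gave 30 (25 shared, Crocc and Taf5l lost), and the replicate block 21 (Acp5 and Taf5l lost). Of 5841 values of 487 named genes under alternatives, 5743 kept direction and call and 93 kept direction but lost the call, 52 of these on log2 TPM. Crocc and Loxl3, not called at -0.04 each, turned direction without a call: Crocc to 0.125 and 0.0953 on log2 TPM (plus 0.1 and 1) and, leaving out 1 library, between -0.0778 and 0.003, and Loxl3 between -0.105 and 0.0306 leaving out 1 library. Of 1440 list counts under alternatives, 45 moved by over 1.5 times, 28 of them on log2 TPM. The causes were not tested. The shorter promoter window was not run, since under 80% of genes had an entry. Depth limits genes under about 1 CPM, near 10 counts a library.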

Other observations

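Some genes switched off lay beside other lowered genes. Cd300e and 2 predicted genes of the switched-off set lie in 1 stretch of chromosome 11 with Cd300lh, and the next tested gene, Cd300lf, was lowered as well, by 3.45 ± 0.19 on the log2 scale. P2ry12 and P2ry13 are adjacent on chromosome 3, but their neighbour P2ry14 was raised, from 2.27 and 1.36 to 6.25 and 8.42 CPM. Slco2b1 on chromosome 7 lies near 3 lowered predicted genes, Gm10605, Gm15635 and Gm4980. Of the 14 genes, 7 had an adjacent tested gene lowered at least 2-fold, as had 24.3% of all tested genes, and 44.0% of all genes lowered at least 2-fold.

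Genes switched on showed some of the same. Met lies beside Cav1, caveolin 1, which went from 0.594 and 1.36 to 70.1 and 71.2 CPM, and Ocstamp beside Slc13a3, a dicarboxylate carrier, which went from 1.78 and 3.03 to 22.5 and 22.1 CPM. Gstt1 lies between its relatives Gstt3, from 3.26 and 4.08 to 17.6 and 17.8 CPM, and Gstt4, at 0 reads at day 0 and 0.942 and 1.61 CPM with RANKL. In 9 of 27 (33.3%) an adjacent gene was raised at least 2-fold, as in 15.9% of all tested genes and 31.5% of all genes raised at least 2-fold. The genes named here were picked with their values in view. Neighbours can share reads or sequence, and no test was made.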
